A study of Mus musculus with 21 samples.

Results

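Mitochondrial ribosomal proteins build the ribosome that works inside mitochondria. Their genes carry the symbols *mrpl* (large subunit) and *mrps* (small subunit) followed by a number. The table of read counts from mouse ventral hypothalamus (VH) held 80 such genes, pseudogenes included, among 21654 genes. Of these, 74 averaged at least 50 reads over the 21 libraries and are described here, 45 of the large subunit and 29 of the small subunit. In all, 12768 genes reached that average and were tested together.

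The mitochondrial ribosome translates the few messenger RNAs encoded by mitochondrial DNA, which specify core subunits of the respiratory chain and of ATP synthase. Its RNAs come from mitochondrial DNA, whereas all of its proteins are encoded in the nucleus, made in the cytosol and imported. In the hypothalamus, mitochondrial function in the *agrp* and *pomc* neurons is known to take part in the sensing of nutrients.

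The study asked how diet or energy balance (calories eaten against calories spent) and body weight separately bear on behavior and metabolic health. VH tissue was sequenced from mice of 4 diet groups. RC NoDS mice (5 libraries) ate regular chow (RC) without a diet switch, and HFD NoDS mice (5 libraries) ate high-fat diet (HFD) without a switch. RC → HFD mice (6 libraries) ate chow chronically and then HFD acutely, and HFD → RC mice (5 libraries) had the reverse order. All were male C57/BL6 mice (C57/B6J in the growth protocol and C57BL/6J in the published methods), 12 to 14 weeks old when acquired. They were kept awake for 3 h with unfamiliar objects and killed at ZT6, in the middle of the light phase. Each library pooled RNA isolated from tissue punches, labeled circumventricular hypothalamus, of 2 mice of the same group. The spread between libraries is therefore a spread between pools and not between single animals. PolyA RNA was sequenced as single-end reads of 100 bp.

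Total counts per library were nearly equal, from 16380781 to 16390598 reads with a median of 16386024, because the authors had re-sampled the reads to a common depth. Scaling factors by TMM (trimmed mean of M values) lay between 0.982 and 1.02. The libraries differed more in complexity, measured here as the percentage at 0 in a library among the 3116 genes with a mean between 5 and 50 reads. This share was 1.12% to 7.22% in RC NoDS, 2.31% to 22.4% in RC → HFD, 5.68% to 31.9% in HFD → RC and 7.70% to 32.9% in HFD NoDS. RC NoDS replicate 1 had the lowest share and HFD NoDS replicate 20 the highest.

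Genes that define the ventral hypothalamus were present, with means over the 21 libraries of 8304 reads for *pomc*, 3892 for *cartpt*, 3039.9 for *npy*, 837 for *agrp* and 1250.1 for *nr5a1*. Of 10 such energy-sensing genes, a list chosen with the study's called genes known, 4 passed the test between RC NoDS and HFD NoDS, against 0.0783% of all tested genes. There *trh* rose (log2 fold change 1.79, edgeR adjusted p 2.36e-07) and *npy* fell (log2 fold change −1.26, edgeR adjusted p 7.79e-05). In the other pairs of groups edgeR called 1 of the 10 in RC → HFD v HFD → RC (0.00783% of all tested genes), 3 in RC NoDS v RC → HFD (0.0392%), 1 in RC NoDS v HFD → RC (0.282%), 0 in HFD NoDS v RC → HFD (0.0157%) and 2 in HFD NoDS v HFD → RC (0.0705%). In the pair with 0, edgeR gave 2 of the 10 an unadjusted p under 0.05, against 7.49% of all tested genes.

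Punches hold many cell types. No marker of the 12 cell types and regions examined had a count of 0 in all libraries. Summed reads of 5 oligodendrocyte markers, of which *mbp* was the most abundant (mean 31251 reads), were 40167 ± 7708, 46740 ± 7020, 77887 ± 33319 and 62551 ± 23291 (mean ± SD) in RC NoDS, RC → HFD, HFD → RC and HFD NoDS. Summed reads of 5 neuronal markers, led by *snap25* (mean 10074 reads), had group means from 32326 in RC NoDS to 35178 in HFD → RC. Those of 5 blood markers, led by *hbb-b1*, had group means from 1712.5 in RC → HFD to 3883 in RC NoDS. Reads of neighboring tissue were present too. The 2 markers of the lateral hypothalamus, *hcrt* and *pmch* (mean 1078.5 reads), had summed group means from 868.6 in RC NoDS to 1655 in RC → HFD. The authors' punches were meant to leave that region out. Summed reads of 4 pituitary markers ran from 2 in a library of HFD NoDS to 2726 in a library of HFD → RC. The markers that edgeR called in at least 1 comparison included *mbp*, *mobp*, *gfap* and *hcrt*. In bulk tissue, fewer cells of a type and less RNA per cell cannot be told apart, and the part of cell composition and of library complexity in the levels of the mitochondrial ribosomal protein genes was not tested beyond the fits with a complexity term described in the closing section.

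The minimum of 50 reads left out 6 genes, of which 4 were pseudogenes. Just below it was *mrpl23*, with a mean of 45.3 reads and a range of 18 to 83 over the 21 libraries, and further below was *mrpl53*, with a mean of 19 reads. The pseudogenes *mrps36-ps1*, *mrpl23-ps1*, *mrpl48-ps* and *mrps36-ps2* averaged 6.10, 5.95, 3.10 and 0.429 reads. The member nearest above the minimum was *mrps36*, with a mean of 138.6 reads, and its protein is now known mainly as a component of the 2-oxoglutarate dehydrogenase complex. No member therefore lay close to the minimum.

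Large subunit genes averaged between 190.7 and 1277 reads per library, with a median of 622. Per kilobase of coding length, which leaves out untranslated exons, they ran from 189 to 2386 reads with a median of 1138. The same median over the 12526 tested genes with a known coding length was 394 reads per kilobase. The coding sequences were short, with a median of 603 bases for the large and 588 for the small subunit against 1440 for all tested genes, while per kilobase of all exons the medians were 358 for the large subunit and 148 for all tested genes. The 3 large subunit genes with the highest level per kilobase of coding length were *mrpl41* (2386 reads), *mrpl51* (2266) and *mrpl20* (2185). The 3 lowest were *mrpl1* (189 reads), which encodes the protein of the mobile L1 stalk, *mrpl47* (352) and *mrpl32* (469), whose protein is cleaved by the m-AAA protease before it enters the ribosome. The order turned with the length used. Per kilobase of all exons the highest were *mrpl52* (1697 reads), *mrpl41* (1246) and *mrpl11* (948), while *mrpl51*, with annotated exons of 3357 bases and a coding length of 384, had 259 and *mrpl32* had 343. *mrpl1* was the lowest on both scales, with 44.4 reads per kilobase of exons.

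Small subunit genes averaged between 138.6 and 1177 reads, with a median of 492. Per kilobase of coding length their median was 688 reads, and the range was 237 to 2337. The highest were *mrps12* (2337 reads per kilobase), whose protein lies at the decoding center, *mrps21* (2035) and *mrps17* (1977). The lowest were *mrps18b* (237), *mrps30* (289) and *mrps35* (324). Here too the order turned with the length used. Per kilobase of all exons the median was 243 reads, the highest were *mrps12* (937), *mrps16* (832) and *mrps23* (556), and the lowest were *mrps10* (49.4), *mrps35* (56.1) and *mrps18b* (86.6), while *mrps21* had 414, *mrps17* 305 and *mrps30* 241. In spite of their symbols, *mrps30* and *mrps18a* encode proteins that sit in the large subunit, and they were kept under their symbols here and moved in an alternative.

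**Figure D1:**
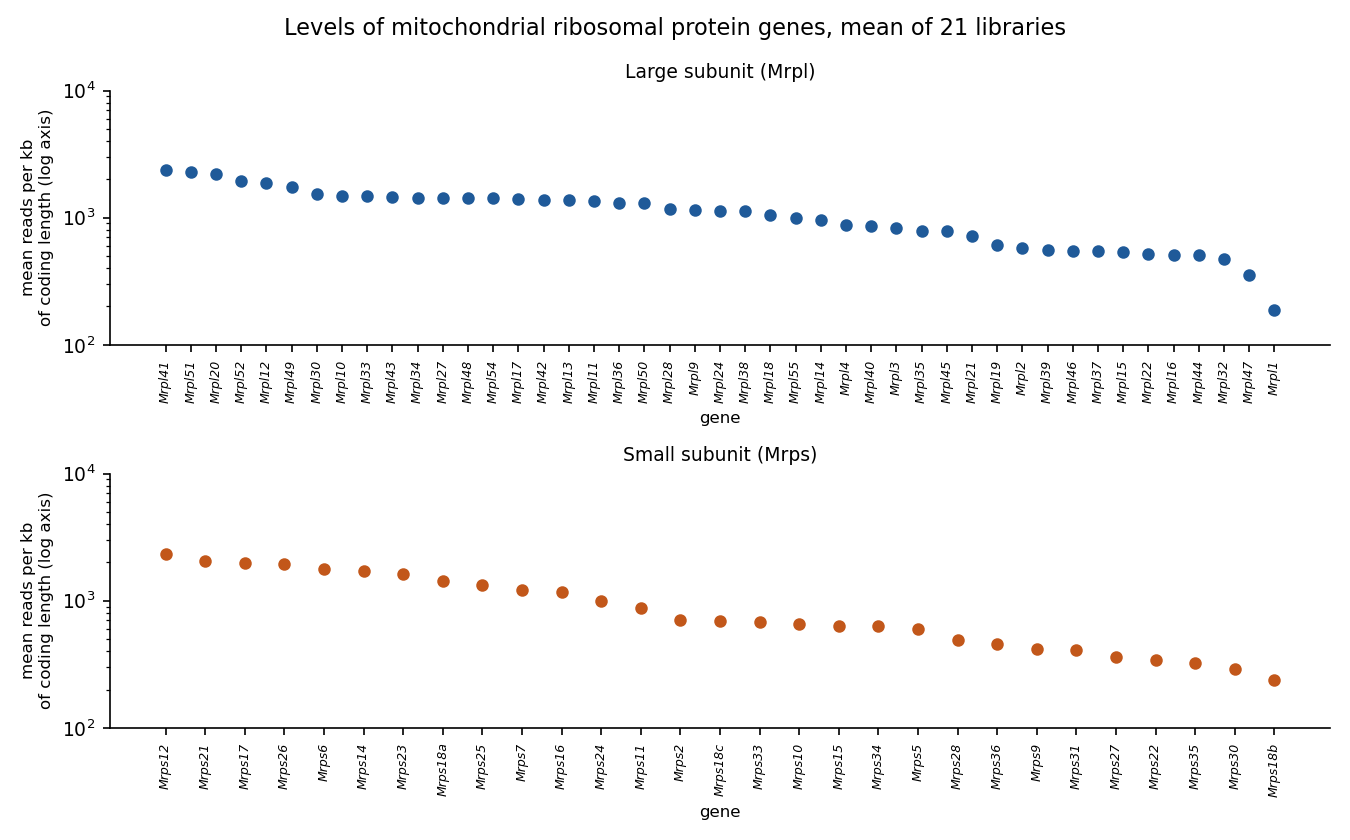
Mean reads per kilobase of coding length over the 21 libraries (log axis) for each large subunit gene (upper panel, 45 genes) and small subunit gene (lower panel, 29 genes), ordered by level. Large subunit genes span 189 to 2386 reads per kilobase and small subunit genes 237 to 2337.

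The order of the genes by read count was similar in all libraries. Spearman's rho of the reads of the 74 members between pairs of libraries, a correlation across genes that are not independent replicates, had a median of 0.918 over 210 pairs and a range of 0.842 to 0.969. Between libraries of a group, the median coefficient of variation of the large subunit genes was 9.70% in RC NoDS, 11.1% in RC → HFD, 12.1% in HFD → RC and 11.6% in HFD NoDS. For the small subunit genes it was 10.4%, 12.2%, 16.8% and 15.4% in the same order. Over all tested genes it was 11.9%, 12.96%, 14.9% and 15.4%. The median biological coefficient of variation estimated by edgeR was 13.004% for the large subunit, 14.1% for the small subunit and 14.8% for all tested genes.

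Reads summed over the 45 large subunit genes were 29660 ± 1225 (SD, n = 5) in RC NoDS. After the switch to HFD the sum was 29239 ± 975 (n = 6), after the switch to chow 28968 ± 254 (n = 5), and with HFD throughout 29154 ± 765 (n = 5). The group means thus lay within 1 SD of RC NoDS, and the 4 groups overlapped. Single libraries gave 31668, 29156, 28427, 29243 and 29805 reads in RC NoDS, and 28097, 28756, 29242, 29590 and 30086 in HFD NoDS. In RC → HFD the lowest, median and highest sums were 27838, 29273 and 30800 reads, and in HFD → RC the 5 sums were 29006, 29081, 28643, 28809 and 29303. RC NoDS replicate 1, the library of the highest complexity, had the highest sum of the 21 libraries.

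Reads summed over the 29 small subunit genes were 15972 ± 772 with chow throughout (SD, n = 5), 15612 ± 639 in RC → HFD (n = 6), 15780 ± 678 after the switch to chow (n = 5) and 15523 ± 676 with HFD throughout (n = 5). These means also differed by less than the spread between libraries. The ratio of large to small subunit reads was 1.86 ± 0.0488 in RC NoDS, 1.87 ± 0.0367 in RC → HFD, 1.84 ± 0.0787 in HFD → RC and 1.88 ± 0.0866 in HFD NoDS. Over single libraries it ran from 1.74 in HFD NoDS replicate 20 to 1.97 in HFD → RC replicate 16.

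**Figure D2:**
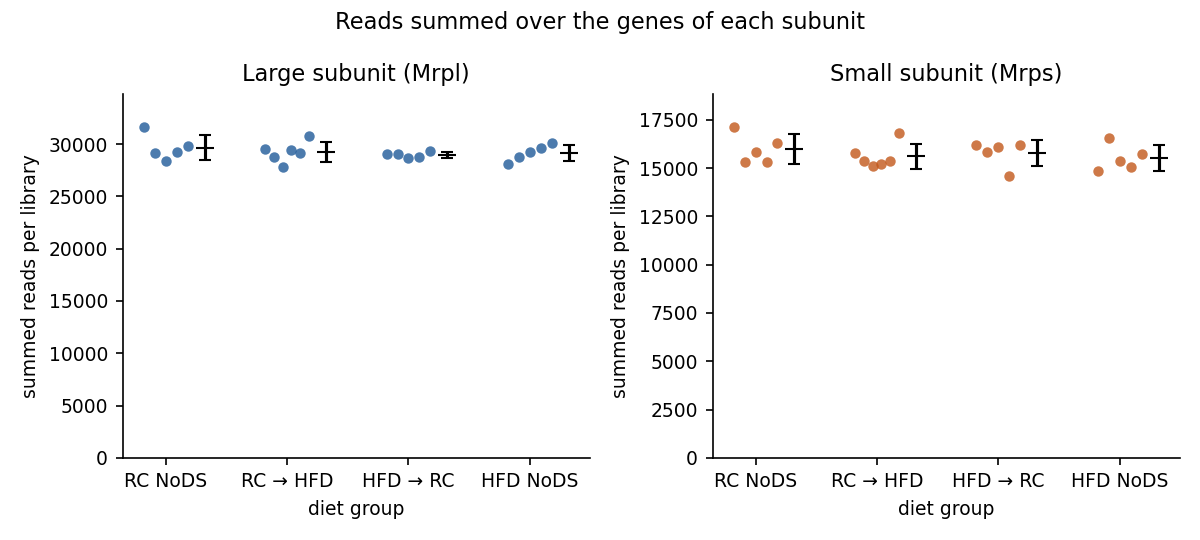
Unscaled reads per library summed over the large subunit genes (left) and the small subunit genes (right) by diet group. Points are libraries and the black marks are means with SD (n = 5, 6, 5 and 5), and the groups overlap in both panels.

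The comparison of RC NoDS v HFD NoDS set mice at stable weights on each diet against each other. None of the 74 mitochondrial ribosomal protein genes passed the edgeR test at an adjusted p under 0.15, the threshold of the study, against 0.0783% of all tested genes. At an unadjusted p under 0.05, edgeR counted 1 member, against 7.41% of all tested genes, DESeq2 counted 2 and limma-voom 3. Neither DESeq2 nor limma-voom called a member, and among all tested genes they called 17 and 10. The libraries of the groups separated without overlap for 0 members, against 0.963% of all tested genes. Here and in the other pairs of groups, overlap over all members and all tested genes was judged on TMM-scaled counts. The median log2 fold change of the large subunit genes in HFD NoDS relative to RC NoDS was −0.03, and over the alternative settings it lay between −0.05 and 0.01, so that its sign was not the same in every setting. That of the small subunit genes was −0.03, with a range of −0.07 to 0.01 over the settings. Over all tested genes it was 0.01. Higher means in HFD NoDS were fitted for 17 of 45 large subunit genes and 12 of 29 small subunit genes, against 51.6% of all tested genes.

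The precision of these differences was set by the spread between libraries. The 95% interval of the log2 fold change lay within 0.5 of 0 for 43 of 45 large subunit genes and 22 of 29 small subunit genes, and for 63.1% of all tested genes. The fitted log2 fold changes of the large subunit genes ran from −0.24 to 0.19. Those of the small subunit genes ran from −0.64 to 0.16, and 4 of the 29 exceeded 0.25 in size.

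The comparison of RC → HFD v HFD → RC set the groups that the study had brought to similar weights on opposite current diets against each other. These groups differed in earlier diet and in energy balance as well, since the paper reports weight gain in RC → HFD and weight loss in HFD → RC. Again edgeR called 0 of 74 members, against 0.00783% of all tested genes. An unadjusted p under 0.05 was found for 5 members by edgeR, against 5.35% of all tested genes, for 5 by DESeq2 and for 5 by limma-voom. Neither of the latter tools called a member, and among all tested genes they called 5 and 1. Libraries of these groups did not overlap for 0 members and for 0.47% of all tested genes. The median log2 fold change, taken as HFD → RC over RC → HFD, was −0.01 for the large subunit, with a range over the settings of −0.03 to 0.0027, and 8.8e-05 for the small subunit, with a range of −0.02 to 0.03. Higher means in HFD → RC were fitted for 19 of 45 large and 15 of 29 small subunit genes, against 50.03% of all tested genes. Intervals lay within 0.5 of 0 for 41 large and 24 small subunit genes, against 67.8% of all tested genes.

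**Figure D3:**
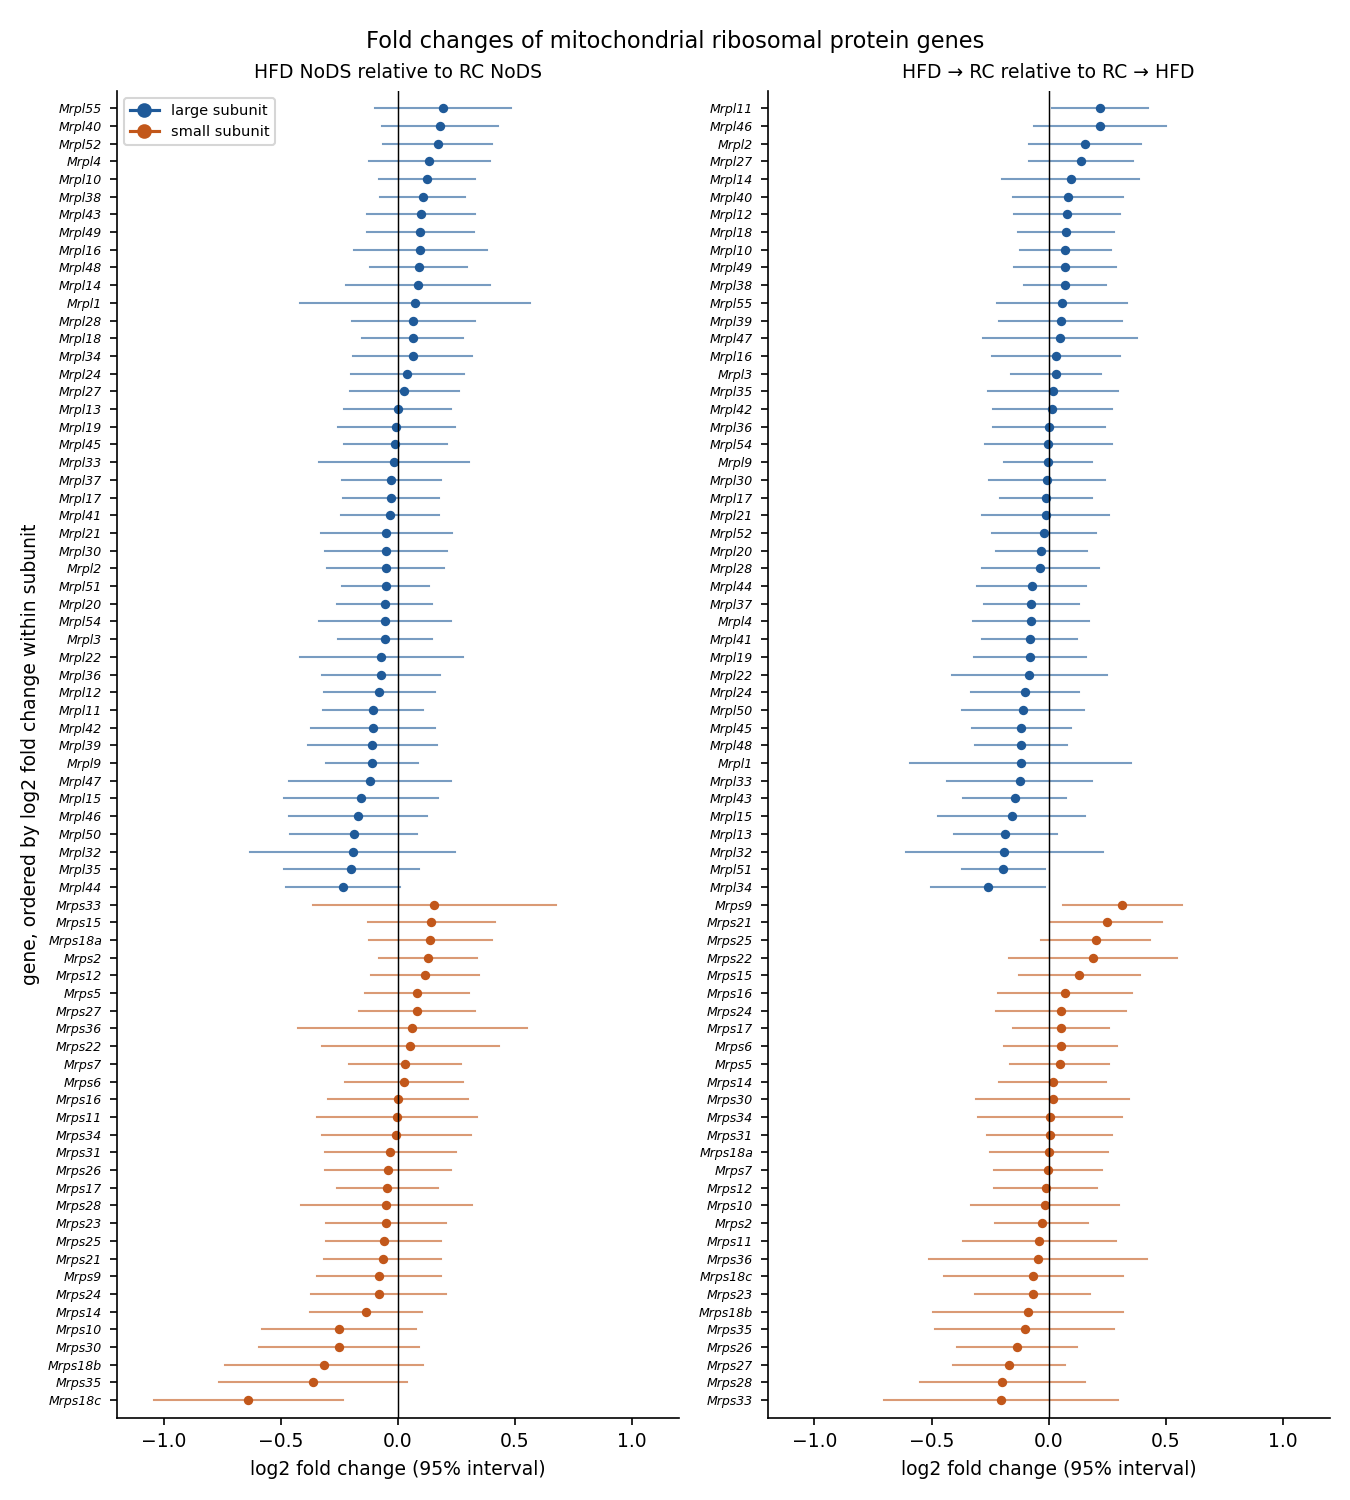
Log2 fold changes fitted by edgeR (points) with 95% intervals (lines) for the 74 genes in HFD NoDS relative to RC NoDS (left) and in HFD → RC relative to RC → HFD (right), ordered within each subunit. None has an adjusted p under 0.15, and *mrps18c* lies farthest from 0 on the left, at −0.64.

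Among the large subunit genes, *mrpl44* had the smallest p between RC NoDS and HFD NoDS. It encodes a protein with a fold like that of ribonuclease III, and variants of its human counterpart cause cardiomyopathy in infancy. Its reads were 588, 596, 505, 621 and 557 in RC NoDS and 474, 506, 499, 401 and 524 in HFD NoDS. Of the RC NoDS libraries, 4 lay above every HFD NoDS library, and replicate 3 lay among them. The edgeR log2 fold change was −0.24 (SE 0.115, 95% interval −0.48 to 0.01) with an adjusted p of 0.666. An exact two-sided permutation test of the means gave p = 0.0238, which was 0.249 after adjustment over the 72 such tests made. *mrpl44* lies on mouse chromosome 1 and overlaps *wdfy1* on the opposite strand, and although the library kit was strand-specific, whether the counting used the strand was not stated in the sources. The next genes by p were *mrpl40*, with a log2 fold change of 0.18 (SE 0.117, edgeR adjusted p 0.718), and *mrpl52*, with 0.17 (SE 0.110, edgeR adjusted p 0.718). Over the settings the fold change of *mrpl40* ran from 0.10 to 0.24 and that of *mrpl52* from 0.10 to 0.21, with no change of sign.

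Between RC → HFD and HFD → RC, the large subunit gene with the smallest p was *mrpl51*. Its reads had a lowest, median and highest value of 860, 938 and 972 in RC → HFD, and were 764, 709, 851, 925 and 813 in HFD → RC. HFD → RC replicate 16 lay inside the range of RC → HFD and the other 4 libraries lay below it. The edgeR log2 fold change was −0.19 (SE 0.0845, 95% interval −0.37 to −0.02) with an adjusted p of 0.899. Next was *mrpl11*, which encodes the protein at the base of the stalk that binds translation factors. Its reads were 677, 717.5 and 831 (lowest, median, highest) in RC → HFD and 732, 946, 777, 900 and 942 in HFD → RC, where 3 libraries lay above all of RC → HFD. The log2 fold change of *mrpl11* was 0.22 (SE 0.0967, edgeR adjusted p 0.899). The third was *mrpl34*, the counterpart of a bacterial large subunit protein, with a log2 fold change of −0.26 (SE 0.115, edgeR adjusted p 0.899), between −0.34 and −0.21 over the settings. Its reads were 325, 428, 307, 358 and 347 in HFD → RC and 388, 411.5 and 493 (lowest, median, highest) in RC → HFD, so that only HFD → RC replicate 14 lay inside the range of RC → HFD.

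Among the small subunit genes, *mrps18c* had the smallest p of all 74 members between RC NoDS and HFD NoDS. It is 1 of 3 related genes, with *mrps18a* and *mrps18b*, that descend from the gene of bacterial protein S18. Its reads were 402, 426, 333, 331 and 234 in RC NoDS and 218, 141, 277, 288 and 172 in HFD NoDS. Of the RC NoDS libraries, 4 lay above all of HFD NoDS, while replicate 6 lay within the HFD NoDS range, and the lowest value, 141, came from HFD NoDS replicate 20, the library of the lowest complexity. The reads were 222, 390, 298, 291 and 297 in HFD → RC, and 262, 302 and 372 (lowest, median, highest) in RC → HFD. Both switched groups overlapped both unswitched groups. In group means, RC NoDS was highest at 345 ± 74.95 reads (SD, n = 5), followed by RC → HFD at 313 ± 45.1 (n = 6), HFD → RC at 299.6 ± 59.7 (n = 5) and HFD NoDS at 219 ± 64.1 (n = 5), and neighbors among the first 3 differed by less than their SD.

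In the edgeR fit, the log2 fold change of *mrps18c* from RC NoDS to HFD NoDS was −0.64 (SE 0.191, 95% interval −1.04 to −0.24) with an adjusted p of 0.610. It was −0.52 without HFD NoDS replicate 20, −0.46 without both that library and RC NoDS replicate 1, and −0.67 with complexity as a covariate. The exact two-sided permutation test gave p = 0.0238 (adjusted over 72 tests, 0.249). Relative to HFD NoDS, RC → HFD differed by 0.52 (SE 0.183, edgeR adjusted p 0.513) and HFD → RC by 0.46 (SE 0.191, edgeR adjusted p 0.546). Over all 4 groups the edgeR adjusted p of *mrps18c* was 0.523. The related *mrps18b* had a log2 fold change of −0.32 (SE 0.201, edgeR adjusted p 0.713) in HFD NoDS relative to RC NoDS, and *mrps18a* one of 0.14 (SE 0.125, edgeR adjusted p 0.778). None of the 3 passed the threshold.

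The other small subunit genes named for their p between RC NoDS and HFD NoDS were *mrps35* and *mrps10*. *mrps35* had 369, 354, 308, 309 and 352 reads in RC NoDS and 251, 147, 326, 237 and 342 in HFD NoDS. HFD NoDS replicates 21 and 24 lay inside the range of RC NoDS and the other 3 lay below it. Its edgeR log2 fold change was −0.36 (SE 0.190, adjusted p 0.676), and over the settings it ran from −0.47 to −0.19. *mrps10*, the counterpart of a bacterial small subunit protein, ran from 410 to 525 reads in RC NoDS and from 305 to 517 in HFD NoDS. Its ranges overlapped, and its log2 fold change was −0.25 (SE 0.156, edgeR adjusted p 0.707), between −0.38 and −0.18 over the settings.

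Between RC → HFD and HFD → RC, the small subunit gene with the smallest p was *mrps9*. It had 593, 621, 522, 455 and 594 reads in HFD → RC and a lowest, median and highest value of 368, 452 and 534 in RC → HFD. Of the HFD → RC libraries, 3 lay above all of RC → HFD and 2 lay among them. The edgeR log2 fold change was 0.31 (SE 0.120, 95% interval 0.06 to 0.57) with an adjusted p of 0.899. *mrps21* and *mrps25* followed, with log2 fold changes of 0.25 (SE 0.112, edgeR adjusted p 0.899) and 0.20 (SE 0.111, edgeR adjusted p 0.979). Over the settings they ran from 0.15 to 0.31 and from 0.15 to 0.24.

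**Figure D4:**
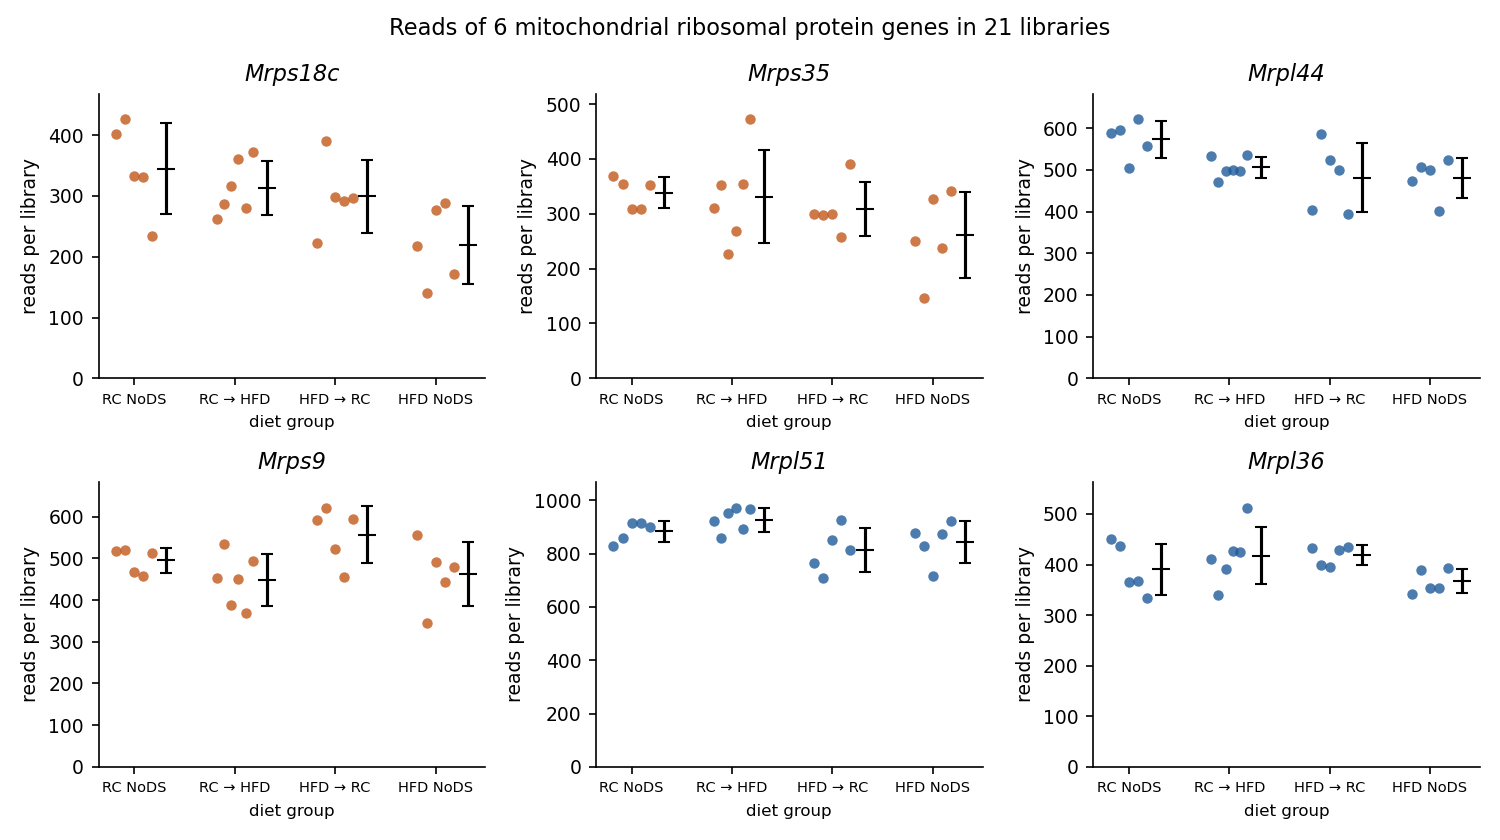
Reads per library of 6 genes by diet group, with points for libraries and black marks for means with SD (n = 5, 6, 5 and 5). Groups overlap for every gene shown except *mrpl36* between HFD NoDS (342 to 394 reads) and HFD → RC (395 to 435), and *mrpl36* was chosen after its values were seen.

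The remaining pairs of groups share libraries with the comparisons above. RC NoDS v RC → HFD compared chow with a recent change to HFD. There edgeR called 0 members, against 0.0392% of all tested genes, and counted 1 at an unadjusted p under 0.05, against 6.51% of all tested genes, as did DESeq2 and limma-voom. Limma-voom called no member, and 5 among all tested genes. DESeq2 gave no adjusted p to any member in this comparison, because it adjusts only genes above a mean level that it sets itself. Members averaged up to 1277 reads, so the 96 genes that DESeq2 called were found among more abundant genes only. The median over the tested genes with a known coding length was 582 reads. Libraries did not overlap for 0 members and for 1.15% of all tested genes. The member with the unadjusted p under 0.05 in edgeR was *mrpl2*, with a log2 fold change of −0.23 (SE 0.113, edgeR adjusted p 0.766), and it was chosen after its values were seen. Medians were 0.01 for the large subunit, between −0.02 and 0.02 over the settings, and −0.02 for the small subunit, between −0.05 and 0.02.

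RC NoDS v HFD → RC compared mice that both ate chow at the time and differed in earlier diet. In edgeR 0 members passed, against 0.282% of all tested genes. At an unadjusted p under 0.05 there was 1 by edgeR, against 8.1% of all tested genes, 1 by DESeq2 and 3 by limma-voom. The latter tools called 0 members, and among all tested genes 147 and 7. No member separated without overlap, against 1.35% of all tested genes. The member counted by edgeR was *mrpl40*, with a log2 fold change of 0.24 (SE 0.117, edgeR adjusted p 0.608). Medians were −0.04 for the large subunit, between −0.07 and 0.02 over the settings, and 0.0040 for the small subunit, between −0.04 and 0.05. Neither median kept its sign in every setting.

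HFD NoDS v RC → HFD compared long with recent HFD. In edgeR 0 members passed, against 0.0157% of all tested genes. An unadjusted p under 0.05 was given to 1 by edgeR, against 7.49% of all tested genes, 1 by DESeq2 and 2 by limma-voom. The latter tools called 0 members, and among all tested genes 32 and 2. Libraries did not overlap for 0 members and for 0.728% of all tested genes. The member counted by edgeR was *mrps18c*, described above. Medians were 0.02 for the large subunit, between 0.0026 and 0.03 over the settings, and −0.0038 for the small subunit, between −0.03 and 0.04.

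HFD NoDS v HFD → RC compared lasting HFD with a recent change to chow. In edgeR 0 members passed, against 0.0705% of all tested genes. At an unadjusted p under 0.05 there were 3 by edgeR, against 7.93% of all tested genes, 3 by DESeq2 and 4 by limma-voom. The latter tools called 0 members, and among all tested genes 44 and 12. The 3 in edgeR were *mrps18c*, *mrpl11* (log2 fold change 0.24, SE 0.101) and *mrps9* (0.27, SE 0.126), with adjusted p of 0.546, 0.558 and 0.607. In TMM-scaled counts the libraries of 1 of the 74 members did not overlap, against 0.971% of all tested genes. This was *mrpl36*, with 342, 390, 353, 354 and 394 reads in HFD NoDS and 433, 400, 395, 429 and 435 in HFD → RC. In these unscaled reads the groups were apart by a single read. The edgeR log2 fold change of *mrpl36* was 0.20 (SE 0.119, 95% interval −0.05 to 0.45) with an adjusted p of 0.706. Medians were 0.01 for the large subunit, between −0.01 and 0.02 over the settings, and 0.03 for the small subunit, between −0.02 and 0.06.

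Taking the 4 groups at once, edgeR called 0 members, against 0.149% of all tested genes, and counted 1 at an unadjusted p under 0.05, *mrps18c*, as against 7.97% of all tested genes. DESeq2 and limma-voom each counted 1 and called 0, and among all tested genes they called 133 and 13. For each gene, the highest group mean of TMM-scaled counts divided by the lowest summarizes its variation across diets. This quotient had a median of 1.12 for the large subunit, 1.12 for the small subunit and 1.153 for all tested genes. It was under 1.2 for 42 of 45 large subunit genes and for 24 of 29 small subunit genes, against 64.0% of all tested genes, and the highest values were those of *mrps18c* (1.56) and *mrps35* (1.28). On unscaled reads it was under 1.2 for 43 large and 21 small subunit genes. The group that held the highest mean of most large subunit genes turned with the scaling. On TMM-scaled counts it was RC → HFD with 14 genes, before RC NoDS with 13, HFD → RC with 11 and HFD NoDS with 7. On unscaled reads it was RC NoDS with 18, before RC → HFD with 11, HFD → RC with 9 and HFD NoDS with 7. For the small subunit the highest mean was in RC NoDS for 12 genes, RC → HFD for 3, HFD → RC for 7 and HFD NoDS for 7 on either scale.

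The contrast of current diet set HFD NoDS and RC → HFD against RC NoDS and HFD → RC. Its sides also differed in energy balance, as RC → HFD mice gained and HFD → RC mice lost weight. In edgeR 0 members passed, against 0.047% of all tested genes. An unadjusted p under 0.05 was counted for 3 members by edgeR, against 5.22% of all tested genes, 3 by DESeq2 and 4 by limma-voom. The latter tools called 0 members, and among all tested genes 12 and 8. The 3 in edgeR were *mrpl11* (log2 fold change −0.16), *mrps9* (−0.20) and *mrps18c* (−0.29), each with an adjusted p of 0.892. The 95% interval lay within 0.5 of 0 for all 45 large subunit genes and 27 of 29 small subunit genes, against 83.3% of all tested genes. Doublings or halvings with the diet eaten at the time were outside the interval of all 74 genes. The same held for 12621 of the 12768 tested genes.

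The contrast of earlier diet set HFD NoDS and HFD → RC against RC NoDS and RC → HFD. In edgeR 0 members passed, against 0.0705% of all tested genes. An unadjusted p under 0.05 was counted for 1 member by edgeR, against 7.27% of all tested genes, 2 by DESeq2 and 1 by limma-voom. The latter tools called 0 members, and among all tested genes 32 and 3. The member counted by edgeR was *mrps18c* (log2 fold change −0.35, SE 0.131, edgeR adjusted p 0.590). Higher means after earlier HFD were fitted for 15 of 45 large subunit genes and 14 of 29 small subunit genes, against 51.2% of all tested genes. The large subunit median was −0.03, between −0.04 and −0.0041 over the settings, and that of all tested genes was 0.0031. Intervals lay within 0.5 of 0 for 45 large and 27 small subunit genes, against 82.4% of all tested genes. The interaction of current and earlier diet called 0 members by edgeR, against 0.0313% of all tested genes, and 1 member, *mrpl33*, had an unadjusted p under 0.05, against 8.84% of all tested genes (log2 difference 0.44, SE 0.212, edgeR adjusted p 0.561). The interaction was not fitted with the other tools, and *mrpl33* was chosen after its values were seen.

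Exact two-sided permutation tests of group means were made for the 12 genes named by their edgeR p, over 6 pairs of groups. Of the 72 tests, 12 gave a p under 0.05 and 0 an adjusted p under 0.15, the smallest adjusted value being 0.249. The smallest p that these tests can give is 0.00794 for 5 against 5 libraries and 0.00433 for 5 against 6. The genes had been chosen for small p in the same libraries, so the raw count is no independent evidence.

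Several members are disease genes in humans. Their means are given with the SD in the order RC NoDS, RC → HFD, HFD → RC, HFD NoDS (5, 6, 5 and 5 libraries). For *mrpl3*, which lies near the peptidyl transferase center, they were 907 ± 110, 848 ± 61.8, 867 ± 109 and 861 ± 54.2 reads. For *mrpl12*, whose protein forms the stalk and has also been reported to bind mitochondrial RNA polymerase, they were 1140.2 ± 137, 1126 ± 191, 1189.6 ± 102 and 1067 ± 118 reads. In both genes the ranges of all groups overlapped. For *mrps22* the means were 351 ± 57.1, 352 ± 42.7, 403 ± 132 and 359.8 ± 74.1. For *mrps16* they were 468 ± 35.1, 466 ± 68.2, 488 ± 99.3 and 463 ± 73.8, and for *mrps7* 896 ± 62.4, 858 ± 56.9, 857 ± 172 and 901 ± 100.1. These 3 small subunit genes likewise overlapped between all groups. Group means of *mrps34* ran from 395 ± 59.5 in RC → HFD to 439 ± 94.3 in RC NoDS, and those of *mrps2* from 594 ± 27.4 in RC NoDS to 641 ± 44.1 in HFD NoDS. In *mrps14* they ran from 628.5 ± 89.5 in RC → HFD to 712 ± 54.6 in RC NoDS, and in *mrps28* from 243 ± 57.1 in HFD → RC to 295 ± 44.4 in RC NoDS. Group means of *mrpl24* ran from 688 ± 126 in HFD → RC to 768 ± 85.0 in HFD NoDS, and none of these genes was called in any comparison.

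Single genes of the ribosome showed little correlation with each other between libraries in TMM-scaled counts. After removal of group means, the median Pearson correlation over the 21 libraries was 0.02 for the 990 pairs within the large subunit, 0.05 for the 406 pairs within the small subunit and 0.04 for the 1305 pairs between them, against −0.0010 for pairs of all tested genes. The pairs share libraries and depth, and no test was made. Noise in the counts of single genes lowers such correlations, so these values cannot tell noise from an absence of shared variation. The pair with the highest value was *mrpl14* and *mrps12* (r = 0.78) and that with the lowest *mrpl14* and *mrpl32* (r = −0.69), and both were chosen after their values were seen. *mrpl46* and *mrps11*, which overlap on opposite strands of chromosome 7, had r = −0.07.

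Related genes of mitochondrial translation were examined as lists. None had a member called by edgeR in any pair of groups, over all 4 groups or in the contrasts of current and earlier diet. Their counts stand beside 51.6% of all tested genes with higher means in HFD NoDS than in RC NoDS, and 50.03% with higher means in HFD → RC than in RC → HFD. A list of 8 genes with other symbols held 7 of proteins of the mitochondrial ribosome, such as *dap3* and *aurkaip1*, and *oxa1l*, whose product is an inner membrane insertase that binds the ribosome. It included 5 with higher and 3 with lower means in HFD NoDS than in RC NoDS (median log2 fold change 0.04). All 8 had lower means in HFD → RC than in RC → HFD, with a median of −0.05 and a smallest edgeR adjusted p of 0.9999. *aurkaip1* had the highest mean over the 21 libraries (1450.1 reads, before *dap3* with 1412), at 1408 ± 114 reads (SD, n = 5) in RC NoDS, where *dap3* was higher with 1432, and 1504.2 ± 93.6 (n = 5) in HFD NoDS. Of 30 symbols of assembly factors, old and new names included, 23 were tested, with 11 higher and 12 lower in HFD NoDS than in RC NoDS (median −0.02). In HFD → RC relative to RC → HFD, 11 were higher and 12 lower (median −0.04). The most abundant was the helicase gene *dhx30*, with a mean of 2402 reads.

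Of 14 translation factors tested, 5 had higher and 9 lower means in HFD NoDS than in RC NoDS (median −0.05), and 8 had higher and 6 lower means in HFD → RC than in RC → HFD (median 0.04). *lrpprc*, which stabilizes mitochondrial messenger RNAs, was the most abundant at a mean of 1618 reads. For 21 aminoacyl-tRNA synthetases and related enzymes of mitochondria, 12 were higher and 9 lower in the first comparison (median 0.03). In the second, 8 were higher and 13 lower (median −0.07). The most abundant was *gars* (mean 1967 reads), which like *kars* in this list encodes the cytosolic enzyme as well. For 11 genes of mitochondrial transcription, RNA processing and DNA replication, 6 were higher and 5 lower (median 0.01), and 3 higher and 8 lower (median −0.06), with *polg*, which encodes the mitochondrial DNA polymerase, the most abundant (mean 916 reads). For 10 nuclear regulators of mitochondrial genes, 4 were higher and 6 lower (median −0.0046), and 4 higher and 6 lower (median −0.03), with *pprc1* the most abundant over the 21 libraries (mean 733 reads), though not in RC NoDS, where *yy1* was higher (768 against 702). Leaving aside the interaction, which was not examined for the lists, the smallest edgeR adjusted p of any gene of these lists was 0.416. The lists, like the ribosomal proteins themselves, showed no called difference by diet in the comparisons examined.

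The 74 genes lie on 17 chromosomes, most on chromosome 11 (10 genes) and chromosome 17 (8 genes). For 28 of them another annotated gene overlaps on the opposite strand, for 7 one overlaps on the same strand, and 43 have no overlap in the annotation. The library kit kept the strand, but the sources do not state whether the counting used it or how reads shared with pseudogenes were handled, so whether the counts include reads of such neighbors was not tested.

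Promoter sequences of RefSeq on GRCm38.p6, 250 bases before and 50 after the start, were available for 65 of the 74 members and 27025 genes in all. They were searched on both strands for GCGCATGC (NRF1), CCGGAAG (ETS factors, which include GABPA), AAGATGGCG (YY1) and TATAAA (the TATA box). The NRF1 motif was in 7 of 39 large subunit promoters (17.9%) and 1 of 26 small subunit promoters (3.85%), against 3.05% of all genes in the table and 5.97% of those tested here. The ETS motif was in 30.8% of large and 42.3% of small subunit promoters, against 9.93% of all genes and 18.6% of those tested. The YY1 motif was in 10.3% and 15.4%, against 1.64% and 3.49%. TATAAA was in 7.69% and 7.69%, against 15.7% and 8.35%. These are matches of letters in a window and say nothing of binding.

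The 250 bases before the start are given for *mrps18c*, the gene with the smallest p above, and for *mrpl32*, which held more NRF1 matches than any other member and was chosen for that after the search. The build differs from the mm9 build of the counts, and the window printed for *mrps18c* is chr5:100798509-100798758 on the plus strand and that for *mrpl32* chr13:14613038-14613287 on the minus strand. Capitals mark the motifs, an ETS motif read on the opposite strand in *mrps18c* and NRF1 motifs on either strand in *mrpl32*, where the first pair overlaps.
Mrps18c: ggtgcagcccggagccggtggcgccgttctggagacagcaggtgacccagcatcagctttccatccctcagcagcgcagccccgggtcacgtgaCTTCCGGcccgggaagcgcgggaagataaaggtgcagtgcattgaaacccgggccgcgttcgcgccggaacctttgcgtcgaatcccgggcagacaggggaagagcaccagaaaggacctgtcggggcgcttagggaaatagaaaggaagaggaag
Mrpl32: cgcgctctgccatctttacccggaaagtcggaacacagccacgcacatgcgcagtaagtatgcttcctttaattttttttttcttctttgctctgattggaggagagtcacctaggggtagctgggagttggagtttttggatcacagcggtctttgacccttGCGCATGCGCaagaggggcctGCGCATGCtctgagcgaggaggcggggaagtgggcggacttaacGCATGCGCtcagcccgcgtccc
*mrpl32* averaged 282 ± 49.0 reads (SD) in RC NoDS, 279 ± 28.9 after the switch to HFD, 244 ± 34.1 after the switch to chow and 244 ± 89.7 in HFD NoDS, and like the other members it was not called in any comparison.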

How the data were processed

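PolyA RNA of 21 VH libraries had been aligned by the authors to mm9 (STAR 2.5.1b, Picard 2.7.1), and the deposited values are read counts per gene, which the authors re-sampled to a common depth. Genes averaging at least 50 reads were fitted in edgeR 4.0.16 (R 4.3.3) by the quasi-likelihood F-test (two-sided for pairs), with TMM factors, 1 mean per group over all 21 libraries and Benjamini-Hochberg adjustment over all 12768 genes at 0.15. Intervals of 95% used 17 residual degrees of freedom. The fit was first tested on simulated data. Gene positions and lengths came from a GENCODE release on the mm9 assembly that is older than the Ensembl gene models the authors counted on, so lengths and overlaps may differ from theirs. Exact two-sided permutation tests used scipy 1.17.1 in Python 3.11.15, descriptions used pandas 2.3.3 with numpy 2.4.6, and plots used matplotlib 3.10.9.

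Genes were named if called, if among the 3 members of a subunit with the smallest p in RC NoDS v HFD NoDS, in RC → HFD v HFD → RC or over all 4 groups, if among the 3 highest or lowest per kilobase in a subunit, if near the read minimum, or for a known role. The members and the lists (ribosome proteins with other symbols and *oxa1l*, assembly factors, translation factors, synthetases, mitochondrial transcription, RNA processing and DNA replication, regulators, energy-sensing genes and cell type markers) were chosen with earlier results of these data known. Alternatives were DESeq2 1.42.0, limma-voom (limma 3.58.1), library totals, DESeq2 size factors in edgeR, a minimum of 5 reads, no minimum, only the 2 groups compared, library complexity as a covariate, removal of a trend on coding length, other choices of members, and each library left out in turn. Leaving out both extremes of complexity was added after the data were seen.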

Additional observations from a re-analysis of the deposited data

Results flagged for a closer look

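In 3 of 60 sets of libraries (15 quantities in each of 4 groups), the highest or lowest library lay apart from the others by Dixon's criterion, which chance alone meets in about 1 of 20 sets. The summed small subunit reads of HFD → RC replicate 16 were 14599, while the other 4 libraries of that group ran from 15824 to 16214 reads. *mrpl34* had 493 reads in RC → HFD replicate 10, while the next library had 421. *mrps10* had 559 reads in HFD → RC replicate 14, while the next library had 368.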

How the results depend on the processing

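No mitochondrial ribosomal protein gene was called in any of the 276 fits other than the reported ones (31 alternative settings over 9 comparisons, where they apply). In 1 of these, DESeq2 in RC NoDS v RC → HFD, no member had an adjusted p, so that fit gives no value. The log2 fold changes of the 14 named differences kept their sign in every setting. Ranges were, for example, −0.75 to −0.46 for *mrps18c* and −0.28 to −0.17 for *mrpl44* in HFD NoDS relative to RC NoDS. For *mrps9* from RC → HFD to HFD → RC the range was 0.27 to 0.38. These differences had been picked for small p, or after their values were seen, in the same libraries that the settings reuse. A kept sign is therefore no independent evidence of a difference. Of the medians of the subunits, those of the large subunit moved by more than the spread between libraries (SD 0.0391 on the log2 scale) in 3 fits. With single libraries left out, the large subunit median in HFD NoDS relative to RC NoDS ran from −0.0328 (without RC NoDS replicate 3) to 0.0119 (without RC NoDS replicate 1). In HFD → RC relative to RC NoDS it ran from −0.0512 (without RC NoDS replicate 5) to 0.0154 (without RC NoDS replicate 1), and it was 0.0148 with both extremes of complexity left out. Outside the fits with single libraries left out, the median log2 fold change of all genes lay farthest from 0 with library totals, at −0.03. Counting *mrps18a* and *mrps30* with the large subunit, or taking all genes averaging at least 5 reads, moved no median by more than that spread.

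The number of genes called among all tested, which sets the background shares, depended on the setting, and the cause was not tested. With DESeq2 it was 17 in RC NoDS v HFD NoDS, 5 in RC → HFD v HFD → RC, 96 in RC NoDS v RC → HFD, 147 in RC NoDS v HFD → RC, 32 in HFD NoDS v RC → HFD, 44 in HFD NoDS v HFD → RC, 133 over all 4 groups, 12 for current and 32 for earlier diet. The 96 came only from the more abundant genes to which DESeq2 gave an adjusted p, and no member was among these. With limma-voom the number of genes called was 7 in RC NoDS v HFD → RC and 3 for earlier diet. With library totals it was 10 in RC NoDS v HFD → RC. With the minimum of 5 reads it was 2 in RC → HFD v HFD → RC, 1 in HFD NoDS v RC → HFD and 4 in HFD NoDS v HFD → RC. With no minimum it was 3, 5 and 5 in the same comparisons, 31 over all 4 groups and 35 for earlier diet. With only the 2 groups compared it was 24 in RC NoDS v RC → HFD, 4 in HFD NoDS v RC → HFD and 1 in HFD NoDS v HFD → RC. With the complexity covariate it was 6 in RC NoDS v HFD NoDS, 1 in RC NoDS v HFD → RC, 1 in HFD NoDS v RC → HFD, 15 in HFD NoDS v HFD → RC, 9 over all 4 groups and 2 for earlier diet. With the coding length trend removed it was 56 in RC NoDS v HFD → RC and 15 in HFD NoDS v HFD → RC. With both extremes of complexity left out, a setting chosen after seeing the data, it was 5 in RC NoDS v HFD NoDS, 1 in RC NoDS v HFD → RC, 5 in HFD NoDS v HFD → RC, 10 over all 4 groups and 2 for earlier diet.

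Leaving out single libraries gave 5 (without RC NoDS replicate 1) to 14 (without RC NoDS replicate 6) genes in RC NoDS v HFD NoDS. It gave 1 (without RC NoDS replicate 1, among others) to 41 in RC → HFD v HFD → RC, 1 (without RC NoDS replicate 1) to 205 in RC NoDS v HFD → RC, 9 (without RC → HFD replicate 11) to 80 over all 4 groups and 2 (without RC NoDS replicate 1) to 70 for earlier diet, the highest each time without HFD → RC replicate 16. The range was 4 (without RC NoDS replicate 1) to 11 (without HFD NoDS replicate 20) in RC NoDS v RC → HFD, and 1 (without RC NoDS replicate 3) to 31 (without HFD NoDS replicate 19) in HFD NoDS v RC → HFD. It was 1 (without HFD → RC replicate 15) to 13 (without RC → HFD replicate 8) in HFD NoDS v HFD → RC, and 4 (without RC NoDS replicate 2) to 10 (without HFD → RC replicate 16) for current diet. Where several libraries gave the same extreme, 1 is named. The count of members called was 0 in each of these fits.

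No paired analysis was possible because no replicate number is shared between groups. Differences of single genes smaller than their intervals were not detectable at this spread between libraries. Pools of 2 mice hide differences between animals, and the reads measure messenger RNA, not protein or assembled ribosomes.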
